A study of Homo sapiens with 4 samples.

Results

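The 39 genes described here are immediate early genes, subunits of the AP-1 transcription factor and feedback inhibitors of MAP kinase signalling, chosen by name and matched by Ensembl ID among the 60617 genes of the table. All 39 were found. RNA came from T24 and 5637, established lines of human bladder carcinoma, and each line gave 1 library of untreated cells and 1 of cells exposed for 6 h to protodioscin, a steroidal saponin of plants such as yam and fenugreek. The titles give the dose as 60 μM in T24 and 70 μM in 5637, while the treatment protocol writes the same figures in millimolar, and the labels name no vehicle for the untreated cells. T24 is known to carry an activated HRAS allele. Values are FPKM, which scale the fragments of a gene to transcript length and library size, so levels may be compared between genes. Where a pair of levels is written with "against", the untreated library comes first, and a value in brackets after it is the difference, treated minus untreated, on the log2(FPKM + 1) scale. With 1 library per line and treatment, differences within a line carry no replicate error.

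Growth factors and stress activate the kinases ERK, JNK and p38, which phosphorylate factors already bound at the DNA, and immediate early genes such as FOS and EGR1 are then transcribed within minutes without new protein synthesis. Their products form AP-1 dimers or zinc finger factors that act on later genes. The same signal induces its own brakes: dual-specificity phosphatases (DUSPs) remove phosphate from the MAP kinases, Sprouty and Spred proteins act upstream, between the receptor and the kinase cascade, and the ETV4 and ETV5 factors are induced alongside as readouts of ERK activity. Transcripts of this kind usually peak early and decline, and protodioscin had been present for 6 h here.

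The regulatory DNA shown first is the stretch of 250 bases before the RefSeq start site (GRCh38.p14) of 4 genes on which the results turn. Capitals mark matches, on either strand, to the motifs listed after them. The windows are chr5:138465229-138465478 on the plus strand for EGR1, chr14:75278578-75278827 on the plus strand for FOS, chr1:212565157-212565406 on the plus strand for ATF3, at the more upstream of its start sites, and chr5:172771196-172771445 on the minus strand for DUSP1.
EGR1: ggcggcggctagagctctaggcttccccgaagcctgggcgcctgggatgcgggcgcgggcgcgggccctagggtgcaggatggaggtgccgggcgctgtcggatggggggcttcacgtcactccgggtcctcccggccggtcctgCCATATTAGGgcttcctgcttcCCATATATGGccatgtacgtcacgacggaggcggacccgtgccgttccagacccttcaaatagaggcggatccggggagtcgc
FOS: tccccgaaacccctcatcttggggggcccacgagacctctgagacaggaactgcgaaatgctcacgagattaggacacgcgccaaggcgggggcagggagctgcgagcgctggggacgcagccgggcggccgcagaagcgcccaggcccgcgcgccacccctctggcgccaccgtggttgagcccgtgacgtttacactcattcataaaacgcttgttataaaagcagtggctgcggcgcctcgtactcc
ATF3: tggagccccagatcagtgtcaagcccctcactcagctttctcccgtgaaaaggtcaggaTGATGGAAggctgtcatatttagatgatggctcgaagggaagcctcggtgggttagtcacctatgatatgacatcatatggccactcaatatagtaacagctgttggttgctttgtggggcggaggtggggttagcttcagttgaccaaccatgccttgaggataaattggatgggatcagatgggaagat
DUSP1: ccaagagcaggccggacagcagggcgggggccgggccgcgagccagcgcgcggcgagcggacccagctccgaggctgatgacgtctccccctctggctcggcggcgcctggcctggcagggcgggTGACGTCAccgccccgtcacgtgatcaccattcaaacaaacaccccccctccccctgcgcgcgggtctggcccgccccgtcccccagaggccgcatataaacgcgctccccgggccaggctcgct

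The EGR1 window held a pair of CArG boxes, the motif bound by serum response factor, at -105 to -96 and at -83 to -74 from the start site, counting the first upstream base as -1. The DUSP1 window held a cyclic AMP response element (TGACGTCA) at -125 to -118. The ATF3 window held an ATF4-type element (TGATGNAA) at -191 to -184, while the window of its other start site, chr1:212614768-212615017, held no match, and the FOS window held no match to a searched motif. In all, 29 of the 39 genes had a window, and several had more than 1 start site, which gave 39 windows. CArG boxes were in the windows of EGR1, EGR2 and SRF and in 1.16% of 35116 windows of all genes. Cyclic AMP response elements were in those of DUSP1, DUSP8 and JUND (1.65% of all windows), ATF4-type elements in those of ATF3 and SPRED2 (3.14%), and EGR sites (GCGGGGGCG or GCGTGGGCG) in those of 6 genes (5.37%), DUSP2, KLF2, KLF6, SPRY1, SPRY2 and SRF. ETS sites (CCGGAA) were in those of 8 genes (14.5%), FOSB, IER2, IER5, NR4A1, PHLDA1, SPRY1, SPRY2 and SRF. AP-1 sites (TGACTCA or TGAGTCA) were in 0 of the 39 windows and in 4.20% of all. A match is a run of letters, and no binding was measured here.

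**Figure D1:**
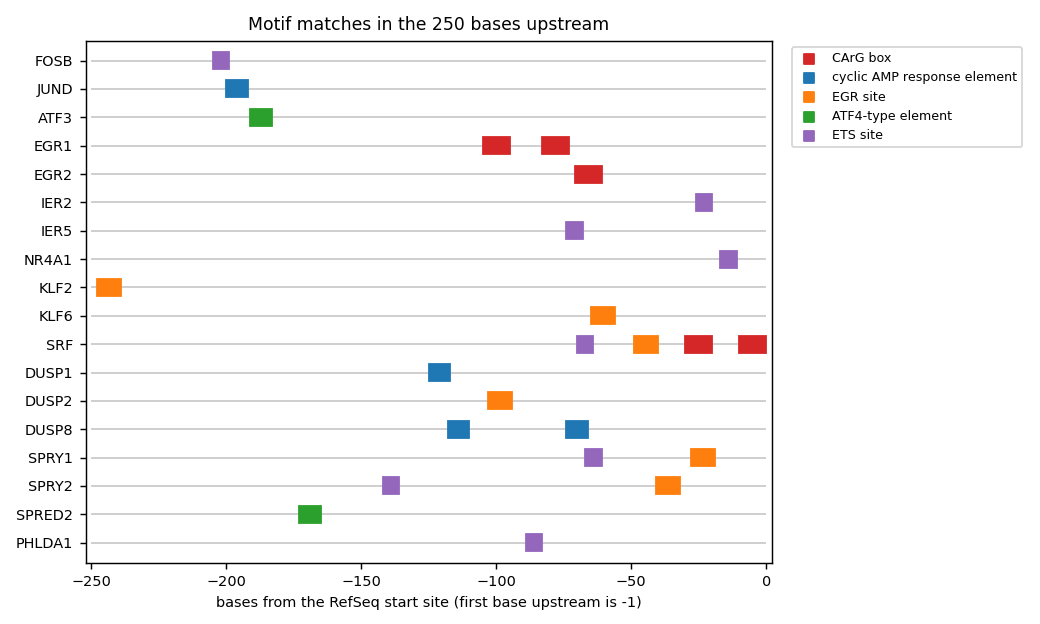
Positions of motif matches in the 250 bases before the start site of the 18 genes that have any, with the distance from the start site in bases on the x axis and 1 row for each gene. EGR1 and SRF each show a pair of CArG boxes, and DUSP8 shows a pair of cyclic AMP response elements.

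FOSL1 was by far the most abundant of the 39 genes in all 4 libraries. FOSL1, a FOS family subunit of AP-1 linked to migration and invasion of carcinoma cells, stood at 254 against 189 FPKM in T24 and at 404 against 366 FPKM in 5637. It held between 87.6% and 92.9% of the summed FPKM of FOS, FOSB, FOSL1 and FOSL2 in the 4 libraries. At the other end, EGR2, EGR3, NR4A3 and DUSP8 stayed below 1 FPKM in every library. The median of the 39 genes was 9.12 against 10.8 FPKM in T24 and 10.8 against 11.5 FPKM in 5637.

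**Figure D2:**
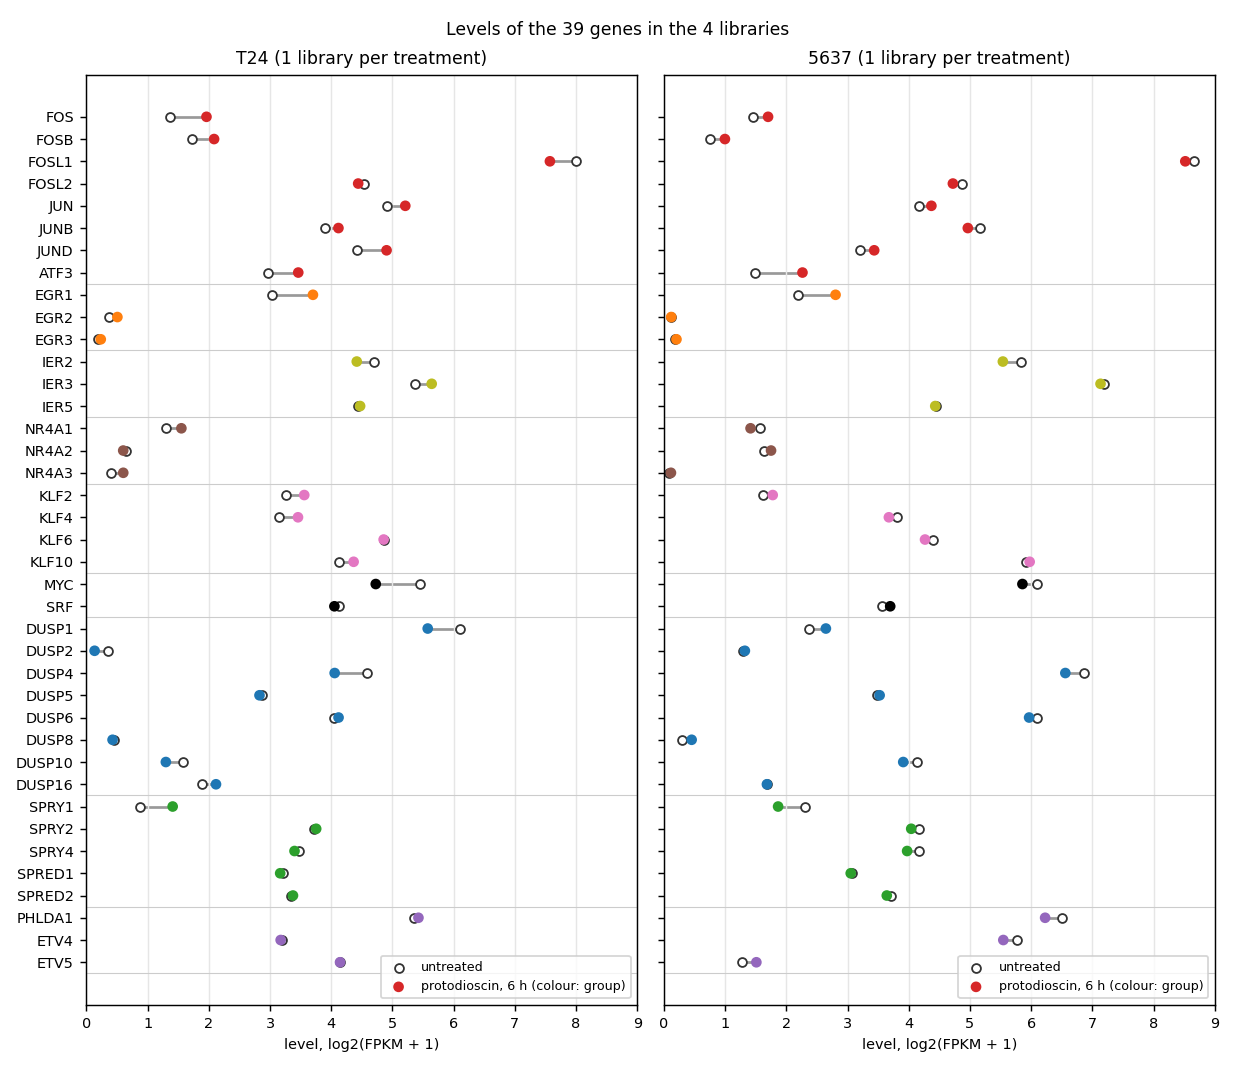
Level of each gene as log2(FPKM + 1) in T24 (left) and 5637 (right), with open circles for untreated cells, filled circles for cells given protodioscin for 6 h and 1 library behind each circle. FOSL1 lies farthest to the right in both lines, and the line that joins the circles is long for EGR1 and ATF3 in both lines, for FOS, MYC, DUSP1 and DUSP4 in T24 and for SPRY1 in both.

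Library facts that touch these values were as follows. The spacing of the lowest values gave a relative depth from 1, in untreated T24, to 1.43, in untreated 5637. From that spacing and the annotated transcript length, the number of read pairs behind a value was estimated, and errors from it cover counting only. Mitochondrial transcripts took up 4.50% against 3.74% of all FPKM in T24 and 9.84% against 11.9% in 5637, so they moved with treatment in opposite directions, and their part in the differences below was not tested. Epithelial markers were present in both lines (KRT7, KRT8 and KRT18 each above 200 FPKM in all libraries), but CDH1 and KRT5 were at or near 0 in T24 and at 69.6 and 331 FPKM in untreated 5637. Of 17 markers of leukocytes, endothelium, fibroblasts, muscle and red cells, those that reached 1 FPKM in a library were CD68 (7.08 against 10.5 FPKM in T24, 1.60 against 1.65 FPKM in 5637), CDH5 (1.57 against 0.777 FPKM in T24) and COL1A1 (6.81 against 7.52 FPKM in 5637). The defining leukocyte gene PTPRC was at or near 0 in all 4 libraries. The summed level of the 9 epithelial markers was 1990 against 1588 FPKM in T24, where 6 of the 9 reached 1 FPKM, and 4332 against 3734 FPKM in 5637, where all 9 did. Summed leukocyte markers were at 7.08 against 10.6 FPKM in T24 and at 1.60 against 1.74 FPKM in 5637, and the part of either list in the differences below was not tested.

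In both lines, cells given protodioscin had more transcript of EGR1 and ATF3. EGR1 (ENSG00000120738, chr5:138465490-138469315 in GRCh38), a zinc finger factor induced by mitogens and stress, stood at 7.15 against 12.0 FPKM in T24 and at 3.58 against 5.99 FPKM in 5637. The treated library was the higher in each line, by 0.67 in T24 and 0.61 in 5637 on the log2(FPKM + 1) scale. In RNA from whole cultures, a change in the cells present and a change in RNA per cell cannot be told apart. An estimated 456 and 982 read pairs in T24 and 328 and 458 in 5637 stood behind these levels. ATF3 (ENSG00000162772, chr1:212565334-212620777), a factor of the AP-1 and CREB superfamily induced by many stresses, was at 6.81 against 10.0 FPKM in T24 and at 1.81 against 3.80 FPKM in 5637. Its differences were 0.496 in T24, just under the size of 0.5 that was used to name a difference, and 0.77 in 5637. The added 1 FPKM shrinks differences of low genes, and without it the log2 ratio of ATF3 in 5637 was 1.07, with a counting error of 0.17.

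By that size rule, 3 of the 33 members compared in T24 were higher with protodioscin, EGR1, FOS and SPRY1, beside 1.03% of all 12193 genes compared. In the other direction 3 were lower, MYC, DUSP1 and DUSP4, beside 2.23% of all genes. In 5637, 2 of 34 members were higher, ATF3 and EGR1, beside 1.01% of 12635 genes, and 0 were lower, beside 1.11%. A gene was compared in a line if either of its libraries reached 1 FPKM. The median difference of the members compared was 0.037 in T24, beside 0.025 for all genes compared, and -0.067 in 5637, beside 0.043. With median-ratio scaling the values in 5637 became -0.13 for the members and -0.013 for all genes. A pseudocount of 5 left 0 members higher in either line, and it left MYC alone at 0.5 or more in the lower direction in T24. The share of all genes past the size was not computed with that pseudocount.

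**Figure D3:**
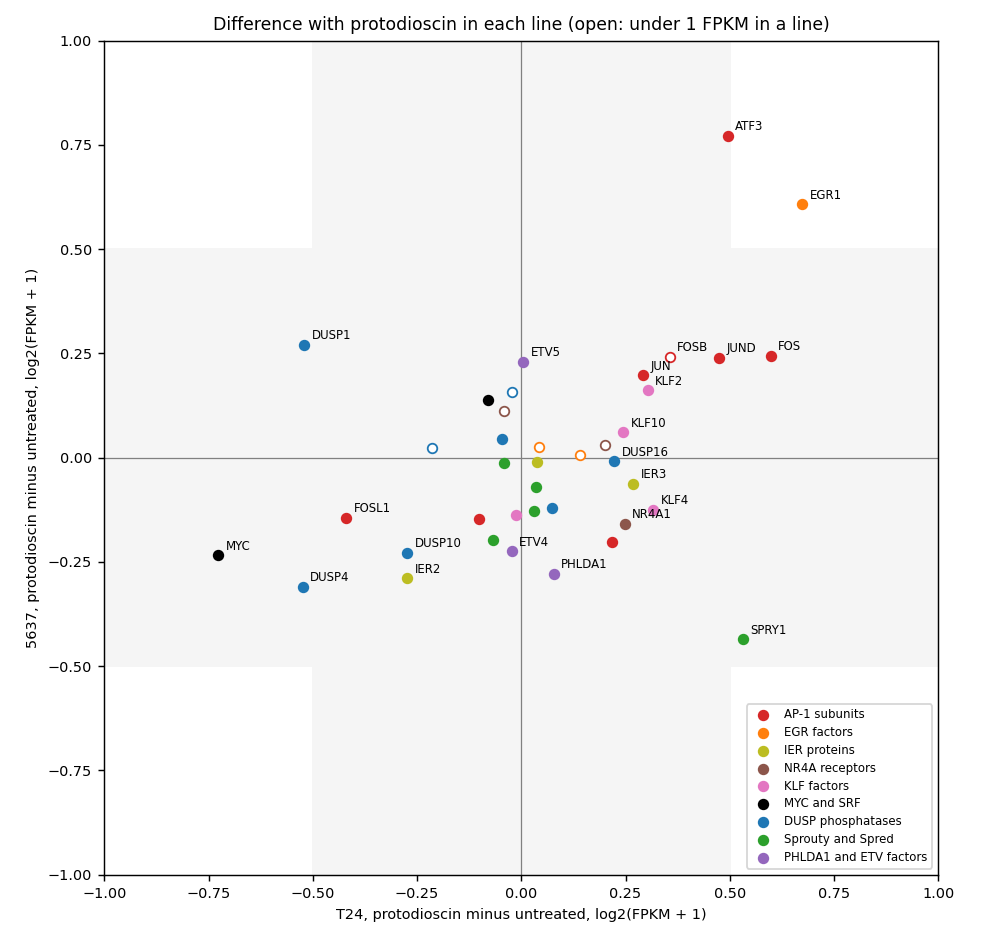
Difference between treated and untreated cells on the log2(FPKM + 1) scale, with T24 on the x axis, 5637 on the y axis and 1 circle per gene (open where a line stayed under 1 FPKM). The white corners hold genes at 0.5 or more in both lines, where EGR1 lies alone with ATF3 at the edge; SPRY1 lies at 0.53 in T24 and -0.44 in 5637, and DUSP1 at -0.52 and 0.27.

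The treatment effect over both lines was tested with limma in a model of the 4 libraries with terms for line and for treatment, which leaves 1 residual degree of freedom. It called 0 of 12893 genes, 0.0%, at a Benjamini-Hochberg adjusted p below 0.05, and 0 of the 35 members in the fit. At an unadjusted p below 0.05 limma gave 1227 genes, 11 of them members. EGR1 had the lowest limma adjusted p of the members at 0.334 (log2 difference 0.64, SE 0.090; 0.27 to 1.0 over the alternative settings), with ATF3 at 0.456 (0.63, SE 0.11) and DUSP4 at 0.468 (-0.42, SE 0.075). Nothing in the labels shows that libraries came from separate cultures. With both terms fitted, the 1 residual degree of freedom is the disagreement of the lines over the treatment effect, and their doses were unequal. Library-to-library spread, which may be technical, enters that disagreement and cannot be separated from it. The p-values rest on this disagreement and on the prior variance taken from all genes, and not on replicate libraries.

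Of the AP-1 subunits, FOSL1 and FOSL2 were lower and the others higher in treated T24. Above 0 were 6 of 8 in T24, with a median of 0.32, and 4 of the 7 compared in 5637, with a median of 0.20. Among all genes compared, 6830 of 12193 were above 0 in T24 and 7776 of 12635 in 5637. FOS (ENSG00000170345, chr14:75278774-75282230), the classic immediate early partner of JUN, stood at 1.57 against 2.89 FPKM in T24 and at 1.75 against 2.25 FPKM in 5637. Its differences were 0.60 and 0.24, and the estimated 69 read pairs in untreated T24 give a counting error of 0.21 on its log2 ratio of 0.88. In 5637 an estimated 110 and 118 read pairs give a counting error of 0.19 on a log2 ratio of 0.37. FOSB, a close relative of FOS, was at 2.32 against 3.25 FPKM in T24 and at 0.688 against 0.996 FPKM in 5637, below the size needed to be compared there.

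FOSL1, whose levels are given above, was lower with protodioscin in both lines, with differences of -0.42 in T24 and -0.14 in 5637. FOSL2, its relative, was at 22.3 against 20.7 FPKM in T24 (-0.10) and at 28.2 against 25.4 FPKM in 5637 (-0.15). JUND, the JUN protein that is present in resting cells, was at 20.5 against 28.9 FPKM in T24 (0.47) and at 8.17 against 9.82 FPKM in 5637 (0.24). JUN, the founding subunit of AP-1, was at 29.2 against 36.0 FPKM in T24 (0.29) and at 17.0 against 19.7 FPKM in 5637 (0.20). For these genes, as for FOS and ATF3, treated cells of both lines lay on the same side of untreated cells. JUNB was the AP-1 subunit with opposite signs, at 13.9 against 16.4 FPKM in T24 (0.22) and at 35.0 against 30.2 FPKM in 5637 (-0.20). It shares exon sequence with HOOK2 on the opposite strand. The library kit named in the labels, TruSeq RNA, is known not to mark strand, and whether HOOK2 reads entered the JUNB value was not tested. HOOK2 was at 6.09 against 4.42 FPKM in T24 and at 15.8 against 14.3 FPKM in 5637. IER2, IER3, EGR3, NR4A1, DUSP6 and PHLDA1 also share exon sequence with a gene on the opposite strand, each of which stayed below 1 FPKM.

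EGR2 and EGR3, relatives of EGR1 with a narrower range of tissues, were at 0.0831 to 0.420 FPKM and at 0.134 to 0.176 FPKM over the 4 libraries. Between 6 and 33 estimated read pairs stood behind these values. Counting errors of the log2 ratios were 0.43 in T24 and 0.79 in 5637 for EGR2, and 0.52 and 0.50 for EGR3. Small differences could not be told from counting error at this depth. Of the NR4A orphan nuclear receptors, NR4A1 was at 1.47 against 1.93 FPKM in T24 (0.25) and at 1.98 against 1.67 FPKM in 5637 (-0.16), with counting errors of 0.20 and 0.18 on its log2 ratios of 0.40 and -0.25. NR4A2 was at 0.561 against 0.517 FPKM in T24 and at 2.11 against 2.37 FPKM in 5637 (0.11), and NR4A3 at 0.320 against 0.518 FPKM in T24 and at 0.0609 against 0.0834 FPKM in 5637.

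Transcripts of the IER genes, which encode short-lived regulators of signalling and survival, were at intermediate to high levels. IER2 was lower with protodioscin in both lines, at 24.8 against 20.4 FPKM in T24 (-0.27) and at 55.8 against 45.5 FPKM in 5637 (-0.29). IER3 was at 40.4 against 48.9 FPKM in T24 (0.27) and at 146 against 139 FPKM in 5637 (-0.06). IER5 was nearly level over the 4 libraries, between 20.6 and 21.2 FPKM. IER2 thus had the opposite sign to EGR1 and FOS in both lines.

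The KLF zinc finger factors were higher in treated T24 for 3 of 4 genes, beside 6830 of all 12193 genes compared. KLF2, which restrains growth and inflammation, was at 8.55 against 10.8 FPKM in T24 (0.30) and at 2.07 against 2.43 FPKM in 5637 (0.16). KLF4, a factor of epithelial differentiation, was at 7.81 against 9.98 FPKM in T24 (0.32) and at 12.9 against 11.8 FPKM in 5637 (-0.13). KLF10, an early target of TGF-beta, was at 16.4 against 19.6 FPKM in T24 (0.24) and at 59.3 against 61.9 FPKM in 5637 (0.06, with the sign turned under median-ratio scaling). KLF6, a tumour suppressor, was at 28.2 FPKM in untreated T24 (-0.01) and at 20.2 against 18.2 FPKM in 5637 (-0.14). The median of the KLF genes was 0.27 in T24 and -0.032 in 5637.

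MYC was lower in treated cells of both lines. MYC (ENSG00000136997), the growth factor-responsive regulator of ribosome production and proliferation, stood at 42.8 against 25.5 FPKM in T24 and at 67.2 against 57.0 FPKM in 5637. The differences were -0.73 in T24 and -0.23 in 5637, and limma gave an adjusted p of 0.482 over both. Behind the T24 levels stood an estimated 1189 and 907 read pairs, and the counting error of the log2 ratio, 0.064, was small beside its value of -0.75. SRF, the factor that binds CArG boxes, was at 16.5 against 15.6 FPKM in T24 (-0.08) and at 10.8 against 12.0 FPKM in 5637 (0.14).

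DUSP1 and DUSP4 were lower in treated T24. DUSP1 (ENSG00000120129, chr5:172768090-172771195), a nuclear phosphatase of p38, JNK and ERK that is itself an immediate early gene, stood at 67.4 against 46.7 FPKM in T24 and at 4.19 against 5.26 FPKM in 5637. Its differences, -0.52 in T24 and 0.27 in 5637, were opposite in sign, and its level in T24 was far above that in 5637 in either condition. DUSP4 (ENSG00000120875), a nuclear phosphatase induced by ERK, was at 22.9 against 15.6 FPKM in T24 (-0.52) and at 116 against 93.3 FPKM in 5637 (-0.31). DUSP10, which prefers p38 and JNK, was also lower in both lines, at 1.97 against 1.46 FPKM in T24 (-0.27) and at 16.6 against 14.0 FPKM in 5637 (-0.23). An estimated 107 and 102 read pairs stood behind its T24 levels, with a counting error of 0.20 on a log2 ratio of -0.43.

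The other phosphatases differed less. DUSP6, the cytoplasmic ERK phosphatase often read as a gauge of ERK activity, was at 15.5 against 16.4 FPKM in T24 (0.07) and at 67.1 against 61.6 FPKM in 5637 (-0.12). DUSP5, the nuclear ERK phosphatase, was at 6.33 against 6.10 FPKM in T24 and at 10.2 against 10.5 FPKM in 5637 (0.05, with the sign turned under median-ratio scaling), and DUSP16 was at 2.72 against 3.34 FPKM in T24 (0.22) and at 2.23 against 2.21 FPKM in 5637. DUSP2, best known from lymphocytes, was at 0.272 against 0.0970 FPKM in T24, with at most 9 estimated read pairs, and at 1.46 FPKM in untreated 5637 (0.02, with the sign turned under TPM, median-ratio and quantile scaling). DUSP8 was at 0.227 to 0.370 FPKM over the libraries, with at most 40 estimated read pairs. The 6 DUSP genes compared in T24 had a median of -0.16, and the 7 in 5637 one of -0.0084 (-0.048 to -0.052 under the other scalings).

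All 5 Sprouty and Spred genes were below 0 in 5637 (median -0.13), beside 4859 of all 12635 genes compared. In T24, 3 of 5 were above 0 (median 0.029), beside 6830 of all 12193 genes. SPRY1 (ENSG00000164056, chr4:123396795-123403760), an inhibitor of receptor tyrosine kinase signalling, stood at 0.836 against 1.66 FPKM in T24 and at 3.93 against 2.65 FPKM in 5637. It was thus higher in treated T24 (0.53) and lower in treated 5637 (-0.44). The estimated read pairs were 44 and 113 in T24 and 299 and 168 in 5637, which gives counting errors of 0.26 and 0.14 on log2 ratios of 0.99 and -0.57. SPRY2 was at 12.2 against 12.5 FPKM in T24 and at 17.0 against 15.5 FPKM in 5637 (-0.13), and SPRY4 at 10.1 against 9.55 FPKM in T24 and at 17.0 against 14.7 FPKM in 5637 (-0.20). SPRED1 and SPRED2, relatives that bring neurofibromin to RAS, were nearly level. SPRED1 was at 8.24 against 7.97 FPKM in T24 and at 7.38 against 7.30 FPKM in 5637, and SPRED2 was at 9.12 against 9.37 FPKM in T24 and at 12.1 against 11.5 FPKM in 5637.

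PHLDA1, an ERK-induced pleckstrin-domain protein, was at 39.7 against 41.9 FPKM in T24 (0.08) and at 90.0 against 74.0 FPKM in 5637 (-0.28). ETV4 was at 8.16 against 8.02 FPKM in T24 (-0.02) and at 53.6 against 45.7 FPKM in 5637 (-0.22). It shares exon sequence on the opposite strand with DHX8, which was at 17.3 against 18.9 FPKM in T24 and at 35.6 against 34.1 FPKM in 5637. Whether DHX8 reads entered the ETV4 value was not tested. ETV5, its relative, was at 16.6 against 16.7 FPKM in T24 (0.005, with the sign turned under median-ratio and quantile scaling) and at 1.43 against 1.85 FPKM in 5637 (0.23). ETV5 shares exon sequence on the same strand with DGKG, which stayed below 1 FPKM in all 4 libraries. ETV4 and ETV5 thus had opposite signs in 5637. The ETV5 levels there rest on an estimated 171 and 185 read pairs, with a counting error of 0.15 on a log2 ratio of 0.37.

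Considering roles, the 19 transcription factor and IER genes compared in T24 had a median of 0.25, with 13 above 0, and the 14 feedback genes (DUSP, Sprouty, Spred, PHLDA1 and ETV genes) a median of -0.0086, with 7 above 0. In 5637 the medians were -0.011 for 19 factors, with 9 above 0, and -0.12 for 15 feedback genes, with 4 above 0. Other scalings left 2 or 3 of these 15 above 0 and gave medians from -0.18 to -0.12, and in T24 TPM scaling turned the feedback median to 0.0026. Without rescaling, 6830 of all 12193 genes compared were above 0 in T24, and 7776 of 12635 in 5637. Of the 32 members compared in both lines, 8 were above 0 in both, 10 below 0 in both and 14 opposite in sign. Whether the responses of the lines differed was not tested, since their doses differ and the only residual degree of freedom is that very difference.

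The other genes of the pathway, 95 in number, gave 2 higher and 3 lower by 0.5 or more in T24 among 87 compared. The shares of all genes there were 1.03% higher and 2.23% lower. In 5637, 0 of 86 passed in either direction, beside 1.01% higher and 1.11% lower of all genes. None of the 24 genes of the ERK cascade from GRB2 to RPS6KA5 passed in either line. With shares that low among all genes, this does not set the cascade apart. RHOB, a small GTPase that is itself an early response gene, was at 22.1 against 35.2 FPKM in T24 (0.64) and at 48.6 against 36.8 FPKM in 5637 (-0.39). NFKBIA, the inhibitor of NF-kB, was at 29.5 against 45.6 FPKM in T24 (0.61) and at 68.7 against 77.8 FPKM in 5637 (0.18). The 3 lower genes in T24 were TNFAIP3, a further NF-kB inhibitor, PLK2, a polo-like kinase, and HBEGF, an EGFR ligand. TNFAIP3, which shares exon sequence on the opposite strand with WAKMAR2, was at 21.6 against 12.5 FPKM in T24 (-0.75) and at 40.4 against 33.9 FPKM in 5637 (-0.24). PLK2 was at 121 against 79.6 FPKM in T24 (-0.60) and at 56.0 against 58.5 FPKM in 5637 (0.06), and HBEGF was at 16.5 against 10.7 FPKM in T24 (-0.58) and at 54.8 against 54.9 FPKM in 5637. The list of other ERK targets and feedback genes, which includes HBEGF, had a median of -0.22 in T24. There 18 of its 20 genes were below 0, beside 5363 of all 12193 genes compared. In 5637 7 of 19 were above 0, with a median of -0.087, beside 7776 of all 12635 genes. Under TPM and median-ratio scaling 3 of the 19 were above 0, with medians of -0.13 and -0.15. The other 3 lists had medians from -0.044 to 0.069 over both lines.

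Between the lines limma called many genes, unlike between treated and untreated cells. With 1 library per line and treatment, the treated and untreated libraries of a line stand as its replicates in this test. The p-values between the lines thus rest on no replicate cultures. In the fit, 11 of the 35 members were higher in T24 at an adjusted p below 0.05, beside 35.1% of all 12893 genes, and 20 were higher in 5637, beside 33.9%. DUSP1 was the member with the largest difference, at 67.4 and 46.7 FPKM in the T24 libraries and 4.19 and 5.26 FPKM in those of 5637 (3.32, SE 0.18, limma adjusted p 2.33e-05). ETV5 was next, at 16.6 and 16.7 FPKM in the T24 libraries and 1.43 and 1.85 FPKM in those of 5637 (2.75, SE 0.10, limma adjusted p 6.36e-06). KLF2, JUND, ATF3, FOSB, EGR1, JUN, KLF6, SRF and DUSP16 were the other members higher in T24, with coefficients from 1.71 down to 0.32. Neither T24 library overlapped either 5637 library for DUSP1 and ETV5, which follows from naming them for the size of their difference. The share of all genes without overlap was not computed.

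Higher in 5637 were most DUSP genes and ETV4. DUSP10 was at 16.6 and 14.0 FPKM in the 5637 libraries and 1.97 and 1.46 FPKM in those of T24 (-2.59, SE 0.093, limma adjusted p 5.44e-06). ETV4 was at 53.6 and 45.7 FPKM beside 8.16 and 8.02 FPKM (-2.47, SE 0.080, limma adjusted p 3.95e-06), DUSP4 at 116 and 93.3 beside 22.9 and 15.6 FPKM (-2.40) and DUSP6 at 67.1 and 61.6 beside 15.5 and 16.4 FPKM (-1.95). Of the 7 DUSP genes in the fit, 5 were higher in 5637, beside 33.9% of all genes, and DUSP1 and DUSP16 in T24, beside 35.1%. DUSP16 kept its call in 6 of 10 alternative settings, with a limma adjusted p of up to 0.157. The most abundant DUSP was DUSP1 in T24, with 57.4% of the summed FPKM of the family in untreated cells, and DUSP4 in 5637, with 53.2%. Of the 5 Sprouty and Spred genes, 4 were higher in 5637, beside the same 33.9% of all genes, with SPRED1 not called (0.13, SE 0.086, limma adjusted p 0.229).

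JUN and JUNB also differed in opposite directions between the lines. JUN was higher in T24 (0.79, SE 0.069, limma adjusted p 0.000155) and JUNB in 5637 (-1.06, SE 0.11, limma adjusted p 0.000309). JUN held 45.9% of the summed FPKM of JUN, JUNB and JUND in untreated T24 and JUNB 58.1% in untreated 5637. FOSL1 was higher in 5637 (-0.81, SE 0.082, limma adjusted p 0.000294), as were MYC (-0.88), IER2 (-1.13), IER3 (-1.66) and KLF10 (-1.70). FOS, IER5, NR4A1 and SPRED1 were the 4 members in the fit without a call between the lines.

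**Figure D4:**
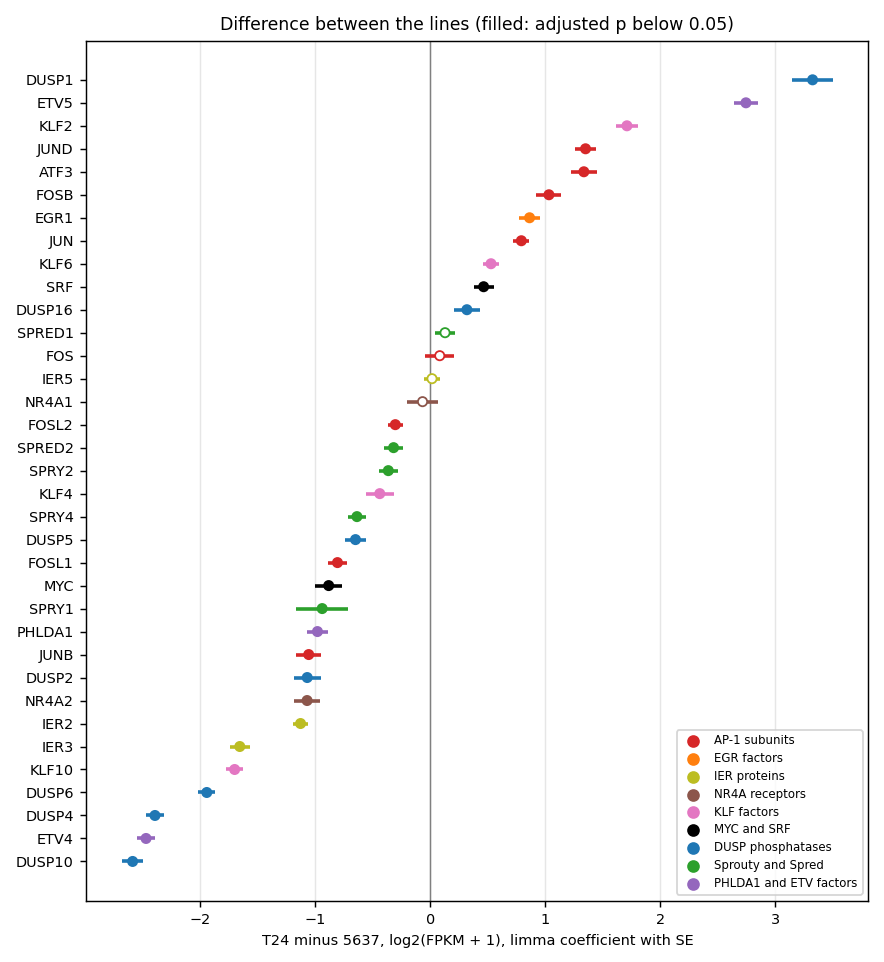
Difference between the lines for the 35 members in the limma fit, T24 minus 5637 on the log2(FPKM + 1) scale, as coefficient with its standard error (bars) and with filled circles at an adjusted p below 0.05. DUSP1 and ETV5 lie farthest toward T24, DUSP10, ETV4 and DUSP4 farthest toward 5637, and the 4 open circles near 0 are FOS, IER5, NR4A1 and SPRED1.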

How the data were processed

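Gene-level FPKM, deposited by the authors as 1 column per library, was the only measurement. Per the submitters' processing notes, Trimmomatic, HISAT2, StringTie and the build GRCh38 were used; versions, settings and annotation: not given in the sources used here. The columns were matched to samples by the labels. Symbols came from a table of gene names (42000 IDs with a symbol), coordinates, transcript lengths and exon overlap from GENCODE 29, and promoter sequence from RefSeq. Values were taken as log2(FPKM + 1) with pandas 2.3.3 in Python 3.11.15. Within a line there was no test: genes reaching 1 FPKM in either library were compared, with a size rule of 0.5. limma 3.58.1 in R 4.3.3, with a trended prior variance, was fitted across all genes that reached 1 FPKM in 2 or more libraries. The same fit was run on simulated data with independent noise and an equal treatment effect in both lines. That run cannot cover a response that differs between the lines, and its outcome is not given here. Read pairs were estimated from the value of 1 read, 0.0171 to 0.0246 FPKM on 1 kb, and transcript length. All 39 members are described, and other pathway genes are named where they passed the size rule or a result turned on them. The members, lists and size rule were chosen with earlier results of these data known. Alternatives were the pseudocount, the filter, the scaling, the prior variance, the terms of the fit and leaving out genes that share exons.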

Additional observations from a re-analysis of the deposited data

Results flagged for a closer look

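Of the genes described, 3 differed by 0.5 or more with protodioscin in 1 line and by 0.25 or more in the opposite direction in the other, with 1 library behind each value, and the difference between the lines was not tested. The same rule took in 0.666% of the 11417 genes compared in both lines. The T24 difference minus the 5637 difference was -0.79 for DUSP1, 0.97 for SPRY1 and 1.03 for RHOB. DUSP1 was at 67.4 against 46.7 FPKM in T24 and at 4.19 against 5.26 FPKM in 5637. SPRY1 was at 0.836 against 1.66 FPKM in T24 and at 3.93 against 2.65 FPKM in 5637. RHOB was at 22.1 against 35.2 FPKM in T24 and at 48.6 against 36.8 FPKM in 5637. With a pseudocount of 5, the differences in T24 and 5637 were -0.49 and 0.16 for DUSP1 and 0.19 and -0.22 for SPRY1, which no longer met the rule, and 0.57 and -0.36 for RHOB, which did.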

How the results depend on the processing

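The term for cell line already pairs treated with untreated cells. No paired analysis by replicate number was possible because the labels give none, and leaving out a library leaves no residual degree of freedom with both terms. The counts of members at 0.5 or more moved with the settings. Shares of all genes past the size were computed for the main setting only. The counts under the alternatives thus do not show whether the members stood apart from other genes. In T24, 3 members were higher, against 0 with a pseudocount of 5, 1 with a filter at 5 FPKM, 4 with a pseudocount of 0.1 (ATF3 added), 5 with TPM scaling (ATF3 and JUND added) and 0 at a size of 1 on the log2 scale, and 3 were lower, against 1 with a pseudocount of 5, 4 with quantile normalisation (FOSL1 added) and 0 at a size of 1. In 5637, 2 were higher, against 0 with a pseudocount of 5, 1 with a filter at 5 FPKM and 0 at a size of 1, and 0 were lower, against 1 (SPRY1) with a pseudocount of 0.1 and with TPM scaling. limma called 0 genes for treatment, against 2 with a pseudocount of 0.1 and 2 with same-strand exon sharers left out, and 0 members in any of these settings. Members called between the lines ranged from 26 to 31 over the alternatives, in which the number of members fitted also changed. With a filter at 5 FPKM, 28 of the 35 members were fitted, and all 28 kept the outcome of the main setting. The share of all genes called in each alternative is not given here. KLF4 and SPRY1 lost their call between the lines with no filter, as did DUSP16 there and in 3 other settings. The median of the members ran from 0.017 to 0.05 in T24 and from -0.13 to -0.011 in 5637. No member past 0.5 changed sign. Over the scalings the median difference of all genes was 0.006 to 0.039 in T24 and -0.013 to 0.043 in 5637. Depth limits EGR2, EGR3, NR4A3, DUSP2 in T24 and DUSP8.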
